A study of Tribolium castaneum with 8 samples.

Results

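The cells described here carry the label NBs I, the deposited name for type I neuroblasts, in a joint annotation of sorted embryonic cells of the red flour beetle Tribolium castaneum and of cells of the fly Drosophila. They were chosen by that label alone. Of 31573 annotated cells, 10168 carried it (32.2%), 3863 of 21148 in Tribolium and 6305 of 10425 in Drosophila. Drosophila gave 33.0% of all annotated cells and 62.0% of the NBs I cells. The Tribolium cells came from 8 droplet libraries in 1 group, all from untreated embryos aged 35 to 50 hours with the genotype turbo GFP, a green fluorescent protein that marks neuroblasts through a Gal4 enhancer trap. The labels give each library a strain number of its own in an unbroken run, from GoGal41519 to GoGal41526, whereas the series speaks of 1 line, so the number was not used. Live cells were sorted for fluorescence, and nothing in the labels ties a library to a separate collection of embryos. Spreads and p-values over libraries may therefore be technical. For the Drosophila cells, the sources used here give no age, genotype or way of isolation, and those cells form 1 pooled set.

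Neuroblasts are the stem cells of the insect central nervous system. In the fly, a type I neuroblast divides asymmetrically, renews itself and gives off a ganglion mother cell (GMC), which divides once more into neurons or glia. A type II neuroblast instead produces intermediate neural progenitors (INPs), which themselves make several ganglion mother cells and so build larger lineages. Known fly markers of type I neuroblasts are deadpan (dpn), a transcriptional repressor that maintains self-renewal, asense (ase), a proneural transcription factor that type II neuroblasts lack, worniu (wor), a zinc finger factor of the Snail family, and miranda (mira), an adaptor that carries fate determinants into the ganglion mother cell. The annotation holds a name for each cell and no expression values, so the NBs I name could not be set against these 4 genes, nor could the molecules per cell be compared between libraries.

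A library held between 77 and 7639 annotated cells (median 1913), and between 20 and 1399 NBs I cells (median 401). Libraries 5, 7 and 8 supplied 68.8% of the NBs I cells of Tribolium. Library 3, with 20 NBs I cells among 77, gives wide intervals throughout. Between Tribolium libraries, 72 pairs of cells shared a barcode of 16 bases, and 17 of these pairs included an NBs I cell, with the same NBs I label on both cells in 2. Within a Tribolium library no barcode was repeated (0 cells). Among the Drosophila cells, 64 barcodes occurred on a cell without a suffix and again on a cell with one, and the label differed in 41 of these pairs.

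NBs I cells were on average the second most frequent kind of annotated beetle cell, after GMC. Their share was 16.3% in library 1, 21.9% in library 2, 26.0% in library 3 and 25.0% in library 4. It was 15.1% in library 5, 19.9% in library 6, 18.7% in library 7 and 18.3% in library 8. Libraries 1 and 5 were thus the lowest, and the small libraries 3 and 4 the highest. The mean was 20.1% ± 3.91 (SD, n = 8), against an SD of 2.04 percentage points that counting error alone would give at these library sizes. The exact (Clopper-Pearson) 95% intervals of library 5 (13.9% to 16.2%) and library 2 (20.1% to 23.8%) did not meet, and 13 of 28 pairs of libraries were separate in this way. These intervals cover counting error only.

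The order of the libraries did not change when only neural cells were counted. This leaves out the labels Mesodermal/muscle progenitors, plasmatocytes/embryonic hemocytes/macrophages (blood cells) and PCGs, an abbreviation that the sources used here leave unexplained. Of neural cells, NBs I made up 20.1% in library 1, 25.8% in library 2, 28.6% in library 3 and 27.0% in library 4. The share was 18.5% in library 5, 24.0% in library 6, 22.8% in library 7 and 20.8% in library 8. The mean was 23.5% ± 3.54 (SD, n = 8), and 9 of 28 pairs of libraries had separate intervals. Libraries 3, 4 and 2 were again the highest and libraries 5 and 1 the lowest, and the chi-square per degree of freedom, which is about 1 where libraries differ by counting error alone, was 7.92, against 9.55 for the share of all cells.

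**Figure D1:**
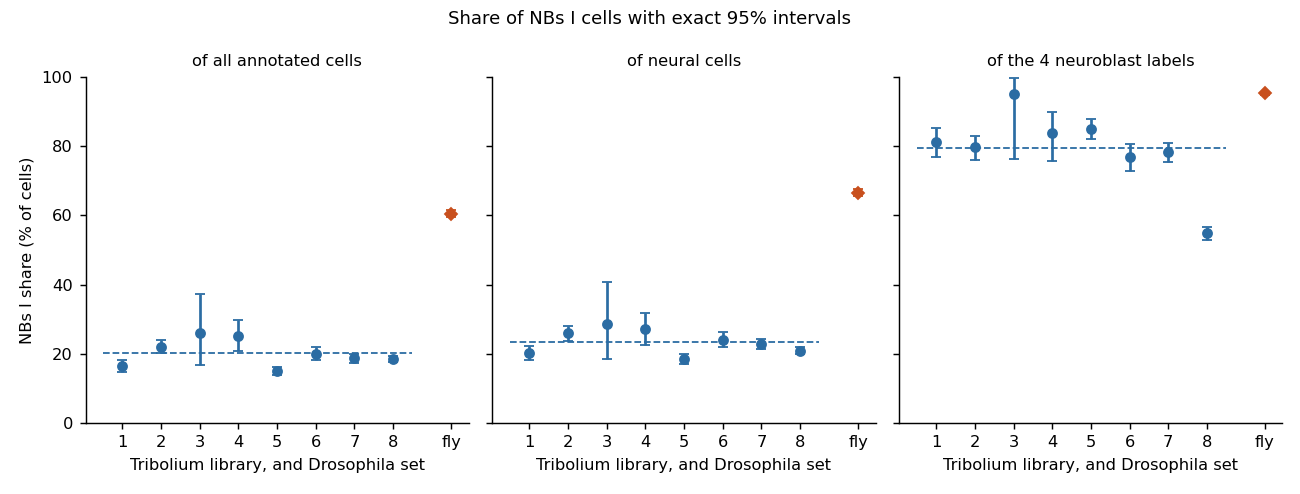
Share of NBs I cells (y axis, percent) in each Tribolium library (1 to 8, blue circles) and in the pooled Drosophila set (fly, orange diamond), of all annotated cells, of neural cells and of the 4 neuroblast labels. Bars are exact 95% binomial intervals and dashed lines the mean of the 8 libraries. The Drosophila value lies far above each library in the first pair of panels, and in the last it lies at the level of library 3 (95.3% against 95.2%), with library 8 far below the others at 54.8%.

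Among the 4 labels that name neuroblasts without a question mark, NBs I was the main one in every beetle library. The others are NBs II/INPs, which joins type II neuroblasts with their intermediate progenitors, Midline_NBs, neuroblasts of the ventral midline, and Sensory NBs. NBs I made up 81.2% of these cells in library 1, 79.7% in library 2, 83.8% in library 4 and 85.1% in library 5. It made up 76.9% in library 6, 78.2% in library 7 and, with 20 of 21 cells, 95.2% in library 3 (exact 95% interval 76.2% to 99.9%). Library 8 stood apart at 54.8% (52.9% to 56.8%), and its interval met that of no other library. The mean was 79.4% ± 11.4 (SD, n = 8), and 82.9% ± 6.17 without library 8 (SD, n = 7). The chi-square per degree of freedom was 62.8 with library 8 and 3.32 without it.

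The cells that filled the remainder in library 8 were not spread evenly over the other neuroblast labels. Of its neuroblast-labelled cells, 21.6% were NBs II/INPs, against 6.20% ± 2.96 in the other libraries (SD, n = 7). Sensory NBs made up 13.9%, against 2.33% ± 1.51 (SD, n = 7). Midline_NBs made up 9.68%, while the other 7 libraries ran from 4.76% to 12.1%. NBs I measured against GMC was also ordinary in library 8, at 0.478 NBs I cells per GMC cell, where the other 7 libraries ranged from 0.376 to 0.534. Against NBs II/INPs/newborn neurons_2? library 8 was the lowest as well, at 1.93 NBs I cells per cell against 3.19 or more elsewhere. Against Midline_NBs it was the lowest by a narrow margin, at 5.66 against 6.36 in library 6 (95% interval 4.81 to 8.54). Against NBs II/INPs/newborn neurons_1? it was instead the highest, at 2.75 NBs I cells per cell against 0.790 to 2.28 in the others. The low share of NBs I among the neuroblast labels of library 8 thus went with many NBs II/INPs and Sensory NBs cells.

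**Figure D2:**
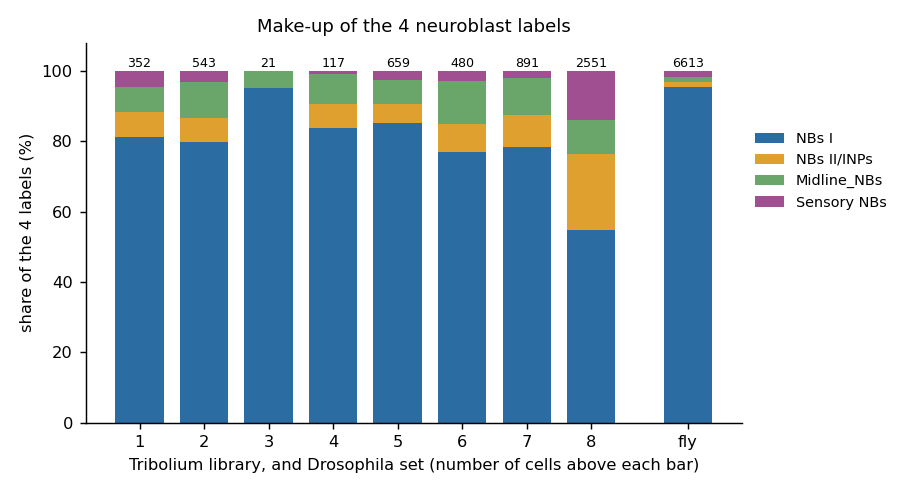
Make-up of the cells with 1 of the 4 neuroblast labels (y axis, percent) in each Tribolium library and in the Drosophila set, with the number of such cells above each bar. NBs I (blue) is the largest part of each bar, from 54.8% in library 8 to 95.3% in Drosophila, and NBs II/INPs and Sensory NBs are widest in library 8.

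Within beetle libraries, NBs I exceeded each other label except GMC. The share of NBs I was compared with that of each of the other 9 labels by the exact two-sided sign-flip permutation test over the 8 libraries, with Benjamini-Hochberg adjustment over the 9 labels. The smallest p this test can give is 0.0078. NBs I was higher than 8 of 9 labels (88.9% of those tested) and lower than 1 of 9 (11.1%). The 8 include PCGs, which had 0 cells in 6 of 8 libraries and 1 cell in each of the other 2, so that the test against it could give only its smallest p. It lay below GMC in 8 of 8 libraries, by 19.1 to 25.5 percentage points (exact permutation, adjusted p = 0.0088).

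The neuroblast labels were far less frequent than NBs I. NBs I exceeded NBs II/INPs by 17.9 ± 4.89 percentage points, Midline_NBs by 17.9 ± 3.88 and Sensory NBs by 19.1 ± 4.59 (SD, n = 8), in 8 of 8 libraries each (exact permutation, adjusted p = 0.0088 each). Even added up, these 3 labels were outnumbered by NBs I in 8 of 8 libraries, from 1.21 NBs I cells per cell in library 8 to 20.0 in library 3, where 1 cell carried any of them (95% interval 3.20 to 829.0). The median was 4.13 NBs I cells per cell of the 3 labels.

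The closest label below NBs I was NBs II/INPs/newborn neurons_1?, which the authors left uncertain between type II lineages and newborn neurons. NBs I exceeded it by 7.48 ± 6.62 percentage points (SD, n = 8; exact permutation, adjusted p = 0.023), in 7 of 8 libraries. Library 5 went the other way, with 0.790 NBs I cells per cell of that label (95% interval 0.706 to 0.884). Without libraries 3 and 4, which hold fewer than 500 cells, the difference was 5.25 ± 6.13 percentage points and no longer passed (n = 6, exact permutation, adjusted p = 0.094). The other uncertain label, NBs II/INPs/newborn neurons_2?, lay 15.2 ± 4.93 percentage points below NBs I in the same test (SD, n = 8; exact permutation, adjusted p = 0.0088). Both uncertain labels together were about as frequent as NBs I, which had 1.20 ± 0.393 cells for each of theirs (SD, n = 8), with more NBs I cells in 5 of 8 libraries.

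NBs I also exceeded the labels outside the nervous system. It lay above Mesodermal/muscle progenitors by 10.3 ± 6.96 percentage points and above the blood cell label by 15.5 ± 5.06 (SD, n = 8; exact permutation, adjusted p = 0.0088 each). The margin over the mesodermal label was narrowest in library 5 at 2.04 percentage points and widest in library 3 at 20.8. All 3 non-neural labels together nevertheless outnumbered NBs I in libraries 1 and 5, with 0.859 and 0.813 NBs I cells per non-neural cell, and the ratio reached 3.38 in library 4.

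**Figure D3:**
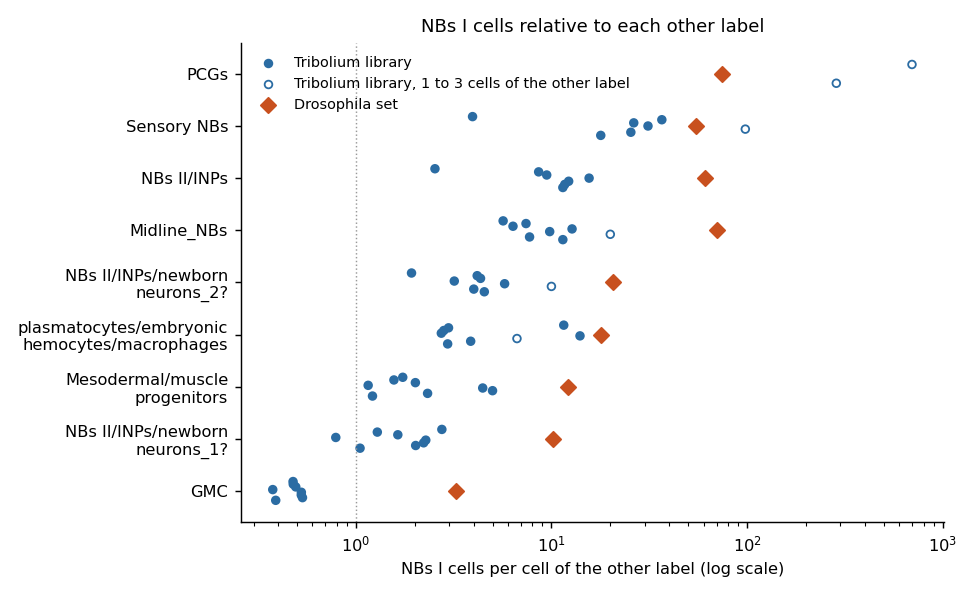
Number of NBs I cells per cell of each other label (x axis, log scale) in each Tribolium library (blue circles, open where the other label has 1 to 3 cells in that library) and in the Drosophila set (orange diamonds). The dotted line marks equal numbers. Only for GMC do the libraries all lie below it, from 0.376 to 0.534, and the diamond lies right of each library for every label except Sensory NBs and PCGs.

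Over the larger libraries NBs I varied least against GMC, but only with library 8 counted. The ratio was 0.390 NBs I cells per GMC cell in library 1, 0.534 in library 2, 0.526 in library 3 and 0.527 in library 4. It was 0.376 in library 5, 0.493 in library 6, 0.479 in library 7 and 0.478 in library 8. Libraries 1 and 5 lay together below the other 6, which fell between 0.478 and 0.534. The interval of library 5 (0.341 to 0.415) did not meet those of libraries 2, 6, 7 and 8, and that of library 1 (0.339 to 0.447) did not meet those of libraries 2 and 8. Over the 6 libraries of 500 or more cells, the SD of the log2 ratio of NBs I to GMC was 0.20. It was 0.40 against the mesodermal label, 0.47 against Midline_NBs and 1.18 against Sensory NBs. Without library 8 (n = 5) it was 0.22 against GMC. The ratios to the blood cell label and to NBs II/INPs/newborn neurons_2? were then slightly more even, at 0.20 each. GMC is the most frequent label in each library, so its ratio carries the least counting error. The part of counting error in these SDs was not tested.

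Libraries 1 and 5 also held the largest mesodermal shares, at 13.4% and 13.0% of cells. In library 7 the mesodermal share was 11.9%, in library 8 10.5%, in library 6 9.88% and in library 2 9.42%. Libraries 4 and 3 had the smallest, at 5.61% and 5.19%, and the largest NBs I shares of neural cells. The mesodermal share is of all cells, NBs I included, so that more NBs I cells lower it by construction. Over the 8 libraries, NBs I as a share of neural cells fell as the mesodermal share rose, with Pearson's r = -0.92 (exact permutation p = 0.0013, adjusted 0.011) and Spearman's rho = -0.95 (p = 0.0011 by the same exact permutation, adjusted 0.010). It was 1 of 9 correlations examined that passed the adjustment by Pearson's r (11.1%). The family set 3 measures of NBs I against the number of cells, the mesodermal share and the blood cell share. With the mesodermal share taken of the cells outside NBs I, a choice made after the data were seen, r was -0.90 (n = 8, exact permutation p = 0.0025, adjusted 0.023) and rho -0.95 (exact permutation p = 0.0011, adjusted 0.010).

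This relation leaned on single libraries for its call. When libraries 3 and 4, whose mesodermal shares are farthest from the median, were left out, r became -0.83 (n = 6, exact permutation p = 0.058, adjusted 0.18). Leaving out library 1 gave r = -0.91 (exact permutation, adjusted p = 0.055) and leaving out library 3 gave r = -0.87 (exact permutation, adjusted p = 0.063), so the sign stayed while the call by r was lost. By rho the call was kept without library 1 (rho = -0.96, exact permutation, adjusted p = 0.025). It was lost by rho without library 2, 3 or 4 (rho = -0.93, exact permutation, adjusted p = 0.055 each) and without library 6 (rho = -0.93, exact permutation, adjusted p = 0.061). Without libraries 1 and 5 together, a choice made after the data were seen, r was -0.87 (n = 6, exact permutation p = 0.024, adjusted 0.071). Libraries 3 and 4 are also the smallest, with 77 and 392 cells. The neural share had r = -0.66 with the number of cells (n = 8, exact permutation p = 0.066, adjusted 0.15). Without library 8 this r was -0.78 (n = 7, exact permutation p = 0.039, adjusted 0.12). Without libraries 1 and 5 it was -0.92 and passed (n = 6, exact permutation p = 0.0028, adjusted 0.025), with rho = -0.94 (exact permutation, adjusted p = 0.075). The part of library size in the relation with the mesodermal share was not tested. The ratio of NBs I to GMC went the same way with the mesodermal share, with r = -0.82 (n = 8, exact permutation p = 0.022, adjusted 0.065) and rho = -0.86 (exact permutation p = 0.011, adjusted 0.048). Without libraries 3 and 4 its r was -0.93 and passed (n = 6, exact permutation p = 0.0056, adjusted 0.025), while rho was -0.89 (exact permutation, adjusted p = 0.15). It also passed by r without library 5 (n = 7, exact permutation, adjusted p = 0.047). It did not pass by r without any other single library, nor without libraries 1 and 5 (exact permutation, adjusted p = 0.18). For the share among the 4 neuroblast labels, r with the mesodermal share was -0.35 (n = 8, exact permutation p = 0.40). That share had r = -0.87 with the number of cells (n = 8, exact permutation p = 0.013, adjusted 0.058) and rho = -0.67 (exact permutation p = 0.083, adjusted 0.25), which became r = -0.06 without libraries 3 and 8 (n = 6, exact permutation p = 0.90) and so rested on them. Without library 5 it passed by r, at -0.94 (n = 7, exact permutation, adjusted p = 0.016). It also passed by r without libraries 1 and 5, at -0.94 (n = 6, exact permutation, adjusted p = 0.025). By rho it passed in neither run (exact permutation, adjusted p = 0.055 and 0.13). The blood cell share had |r| of at most 0.30 with any of the 3 measures over the 8 libraries (largest for the share among the 4 neuroblast labels, r = 0.30, exact permutation p = 0.48). That value rested on library 8, without which r was -0.57 (n = 7, exact permutation p = 0.19, adjusted 0.27). Without libraries 4 and 8, whose blood cell shares are farthest from the median, r was -0.94 and passed (n = 6, exact permutation p = 0.0014, adjusted 0.013), with rho = -1 (exact permutation p = 0.0028, adjusted 0.025).

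**Figure D4:**
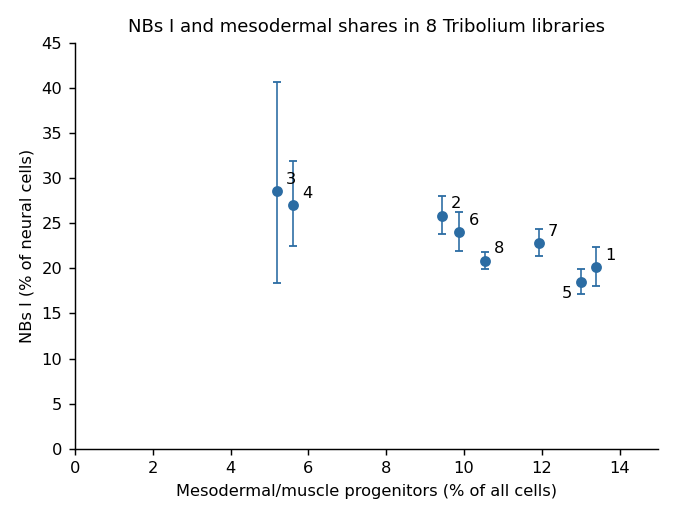
NBs I as a percentage of neural cells (y axis, with exact 95% intervals) against the mesodermal label as a percentage of all cells (x axis) in the 8 Tribolium libraries, each point with its library number. Libraries 3 and 4 lie at the upper left with 28.6% and 27.0% NBs I, and libraries 1 and 5 at the lower right with 20.1% and 18.5%.

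NBs I was a larger part of the Drosophila set than of the mean beetle library whichever cells were counted, but the size of the difference depended on the denominator. NBs I made up 60.5% of all annotated Drosophila cells (exact 95% interval 59.5% to 61.4%), 34.5 percentage points above the highest beetle library. Of neural cells it made up 66.6% (65.6% to 67.5%), which was 43.1 percentage points above the Tribolium mean of 23.5% and 2.84 times that mean. Of the 4 neuroblast labels it made up 95.3% (94.8% to 95.8%), which was 1.20 times the Tribolium mean of 79.4% and only 0.104 percentage points above library 3, whose interval holds it. The upper bounds of the other 7 libraries, at most 89.9% in library 4, lay below the Drosophila value. No p-value was computed between species, since the Drosophila cells are a single pool without replicates and an exact permutation of 1 value against 8 could not go below p = 0.11. Species coincides with the set of cells, so its part cannot be told apart from that of age, isolation or label transfer.

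The Drosophila neuroblasts outside NBs I were few relative to NBs I, whose large share lowers theirs by construction. NBs II/INPs made up 1.56% of the 4 neuroblast labels (103 cells), Midline_NBs 1.36% (90 cells) and Sensory NBs 1.74% (115 cells). In Tribolium, NBs II/INPs made up 8.13% ± 6.09 and Midline_NBs 8.71% ± 2.41 of them (SD, n = 8). Sensory NBs made up 3.77% ± 4.32 (SD, n = 8), and 2.33% ± 1.51 without library 8 (SD, n = 7). Of all annotated cells, Sensory NBs made up 1.10% in Drosophila against 1.05% ± 1.48 in Tribolium (SD, n = 8). NBs II/INPs made up 0.988% against 2.22% ± 2.15, both labels within the range of the libraries. Midline_NBs, at 0.863% against 2.27% ± 0.843, lay below it (SD, n = 8). Where the uncertain question-mark labels were counted with the neuroblasts, NBs I made up 83.7% in Drosophila and 46.6% ± 9.06 in Tribolium (SD, n = 8), so that the species then differed by 37.0 percentage points in place of 15.96. Library 3 was the highest beetle library under that count at 62.5%, and its interval (43.7% to 78.9%) ended below the Drosophila value.

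Measured against single labels, NBs I was more abundant in Drosophila for most of them. The factor over the Tribolium mean was 3.02 to 6.91 for 7 of 9 labels. Per GMC cell there were 3.26 NBs I cells in Drosophila, 6.85 times the Tribolium mean of 0.475 ± 0.0612 (SD, n = 8). It had 70.1 per Midline_NBs cell against 10.1 ± 4.68, 6.91 times, and 61.2 per NBs II/INPs cell against 10.2 ± 4.06 (SD, n = 7, library 3 having none), 5.99 times. Against NBs II/INPs/newborn neurons_1? the factor was 5.82, against the mesodermal label 4.99, against NBs II/INPs/newborn neurons_2? 4.36 and against the blood cell label 3.02. For each of these 7 labels the Drosophila ratio exceeded that of every library that had such cells. With all Tribolium cells pooled, which gives library 8 more weight, there were 4.97 NBs I cells per NBs II/INPs cell in place of 10.2, and 2.87 per cell of NBs II/INPs/newborn neurons_2? in place of 4.74. Over the pooled ratios the factors for these 7 labels ran from 4.23 (blood cell label) to 12.3 (NBs II/INPs). Against all other cells together, Drosophila had 1.53 NBs I cells per cell (95% interval 1.47 to 1.59), 6.00 times the Tribolium mean of 0.255 ± 0.0625 (SD, n = 8).

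For Sensory NBs the comparison depended on 1 cell, and PCGs went the other way. Drosophila had 54.8 NBs I cells per Sensory NBs cell (95% interval 45.6 to 66.5), above 6 of the 7 libraries with such cells. The exception was library 4, with 98 NBs I cells to 1 Sensory NBs cell (95% interval 17.2 to 3910). With all Tribolium cells pooled there were 8.80 NBs I cells per Sensory NBs cell, and the Drosophila ratio was 6.23 times that. Library 8 was the lowest, at 3.95. Per PCGs cell, Drosophila had 74.2 NBs I cells, whereas 3863 NBs I cells stood beside 2 PCGs cells in Tribolium.

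With NBs I cells set aside, the rest of the Drosophila set lay within the range of the 8 beetle libraries for most labels. Over all annotated cells, 6 of 10 labels (60.0%), NBs I among them, had a Drosophila share outside the beetle range. Over the 4120 Drosophila cells and 17285 Tribolium cells outside NBs I, it lay outside the range for 1 of 9 labels (11.1%), which was PCGs. GMC then made up 47.0% in Drosophila, at the lower end of the libraries from 46.9% in library 8 to 66.7% in library 3. Mesodermal/muscle progenitors made up 12.6% against 12.2% ± 3.38, and NBs II/INPs/newborn neurons_1? 15.0% against 15.8% ± 4.13 (SD, n = 8). NBs II/INPs made up 2.50% against 2.76% ± 2.63 and Midline_NBs 2.18% against 2.86% ± 1.07 (SD, n = 8). Drosophila lay further above the Tribolium mean for other labels. NBs II/INPs/newborn neurons_2? made up 7.40% against 6.13% ± 2.46 and the blood cell label 8.52% against 5.81% ± 2.48 (SD, n = 8). Sensory NBs made up 2.79% against 1.29% ± 1.81 (SD, n = 8), 2.16 times the mean.

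Library 8 carried part of this result, because it set one end of several ranges. Without it, 5 of 9 labels lay inside the range. GMC was then just below it, at 47.0% against a lowest library of 47.1%, and NBs II/INPs/newborn neurons_2? and Sensory NBs lay above it with PCGs. Without library 6, the blood cell label lay above the range as well. A distance between compositions does not use the ranges: it gives the percentage of cells to be relabelled before a pair of sets would match. From Drosophila to a Tribolium library it had a median of 42.5 percentage points with all labels counted and of 10.2 with NBs I left out (range 5.84 to 20.5). Pairs of Tribolium libraries differed by a median of 15.97 percentage points without NBs I (range 3.63 to 30.7), and 19 of 28 pairs by as much as the Drosophila median or more. Without library 8 the medians outside NBs I were 10.0 from Drosophila and 11.7 between libraries, and over the 6 libraries of 500 or more cells they were 8.55 and 8.65.

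**Figure D5:**
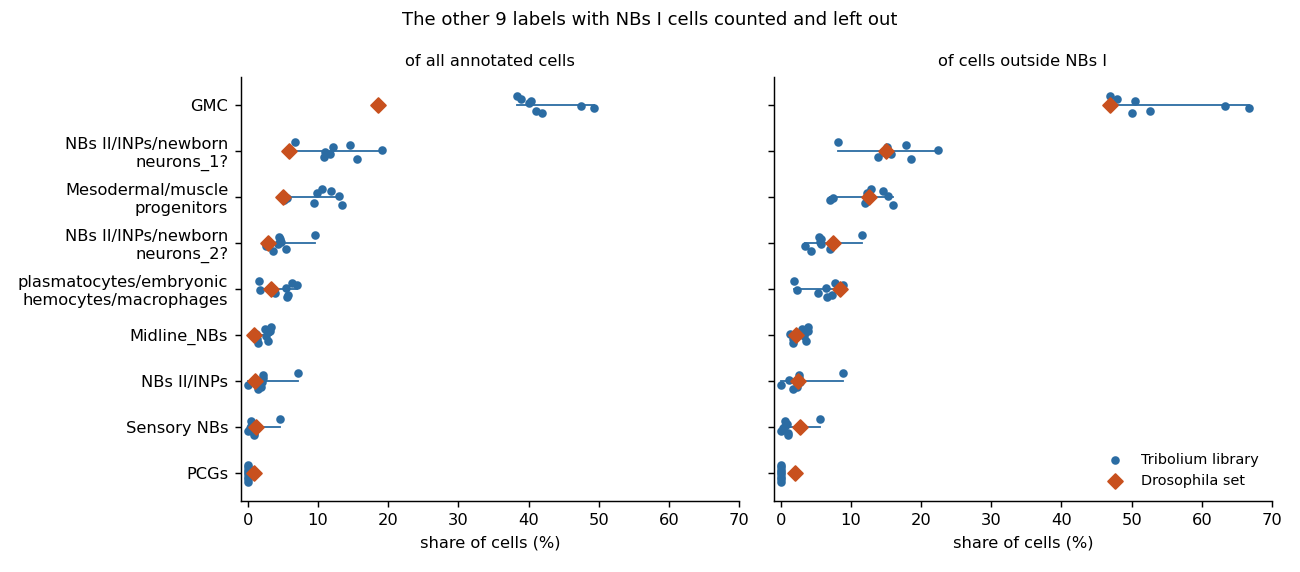
Shares of the other 9 labels (x axis, percent) of all annotated cells (left) and of cells outside NBs I (right). Blue circles are the Tribolium libraries, lines their range and orange diamonds the Drosophila set. On the left the diamond for GMC lies at 18.6%, far below the libraries, and on the right it lies at 47.0%, at the lower end of their range. With NBs I left out, only the diamond for PCGs remains outside.

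The NBs I share was lower among the few Drosophila cells with a barcode suffix, with intervals that overlapped. Of the 10232 cells without a suffix, 60.6% carried NBs I (exact 95% interval 59.6% to 61.6%), and of the 193 with a suffix 53.9% did (46.6% to 61.1%). Of neural cells NBs I made up 66.7% and 60.5% in them, and of the 4 neuroblast labels 95.4% and 94.5%. With the question-mark labels added to those 4, it made up 83.8% and 77.0%. The intervals overlap, and the smaller set leaves differences of several percentage points undetectable.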

How the data were processed

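Single-cell RNA was measured with the 10x Genomics method in 8 Tribolium libraries. The submitters' processing notes name Cell Ranger and Scanpy, with no version or role. The authors deposited 1 table with a barcode, a text label and a species per cell, and it holds no counts or expression values. The deposited file's name speaks of label transfer. The sources used here do not state its method, the builds, the cell filters or the treatment of doublets. Tribolium barcode suffixes 1 to 8 were matched to replicate numbers. All libraries are 1 group, so no mean depends on this.

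Shares were computed per library, and means weight libraries equally. Intervals are exact 95% binomial, and they cover counting error only. Every label is named, since there are fewer than 20. Permutation tests enumerate all sign flips or pairings and were tested on simulated data. The cells and labels were chosen with earlier results of these data known. The comparison outside NBs I by distance, the summed labels, leaving out libraries 1 and 5, the mesodermal share outside NBs I and most runs without repeated barcodes were added after the data were seen. So were the comparisons with the range of the libraries in which 1 library was left out. Alternatives changed weighting, denominators, libraries and barcodes. The tools were scipy 1.17.1, pandas 2.3.3, numpy 2.4.6 and matplotlib 3.10.9 under Python 3.11.15.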

Additional observations from a re-analysis of the deposited data

Results flagged for a closer look

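For 12 measures of NBs I, the distance from the most extreme library to the next one was divided by the range of the libraries, and 2 measures passed the 95% critical value of Dixon's test. Chance flags about 1 in 20 sets, and the measures share cells. One was the NBs I share of the 4 neuroblast labels in library 8, at 54.8%. The other was the number of NBs I cells per Sensory NBs cell in library 4, at 98, which rests on 1 Sensory NBs cell.

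NBs I minus GMC had opposite signs in the species: NBs I lay 41.9 percentage points above GMC in Drosophila and below it in 8 of 8 Tribolium libraries. This difference between species was not tested, as the Drosophila cells are 1 pooled set. Species cannot be told apart here from age, isolation or label transfer.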

How the results depend on the processing

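The Drosophila excess in NBs I kept its sign under every alternative run. Leaving out 1 library at a time gave a difference of 39.6 to 41.2 percentage points for all annotated cells, 42.4 to 43.9 for neural cells and 12.5 to 18.2 for the 4 neuroblast labels. With all cells pooled the last was 26.5. Adding the question-mark labels to the 4 neuroblast labels moved the Tribolium mean from 79.4% to 46.6% and the species difference from 15.96 to 37.0 percentage points, and leaving them out of the neural cells moved that mean from 23.5% to 29.5%, both by construction. The number of labels outside the Tribolium range went from 6 to 1 over cells outside NBs I. Between 0 and 3 correlations passed when 1 library was left out, 2 without the libraries farthest from the median and 2 without libraries 1 and 5. Signs turned only for correlations that had not passed over all 8 libraries. For the share among the 4 neuroblast labels, r with the mesodermal share became 0.40 without libraries 3 and 4, and r with the blood cell share became -0.94 without libraries 4 and 8, which passed, and -0.57 without library 8 alone, which did not. Leaving out 1 library at a time, r with the blood cell share ran from -0.51 to 0.032 (library 4 left out) for the neural share and from -0.57 to 0.48 for the share among the 4 neuroblast labels. The cause was not tested. Removing cells with a repeated barcode left 8 labels below and 1 above NBs I within libraries, 1 correlation past the threshold and 6 labels outside the range over all cells. Removing Drosophila cells with a suffix also left 6. NBs I shares, NBs I cells per GMC cell and their species differences moved by less than 1 SD in both. The 77 cells of library 3 limit it throughout, and 0 of them carried NBs II/INPs, which allows up to 3.90% (3 counts of the total, a limit lower than the exact 95% bound of 4.68%). Labels were compared within libraries. A replicate block between groups does not apply, as there is 1 group.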
